A study of Homo sapiens with 24 samples.

Results

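The insulin-like growth factor (IGF) genes described here are the binding proteins IGFBP2, IGFBP3, IGFBP4, IGFBP5, IGFBP6 and IGFBP7, the receptors IGF1R and IGF2R, and the ligand IGF2. These 9 genes were matched by symbol to the Ensembl identifiers of the count files, out of 62703 gene identifiers, and all 9 were among the 16600 genes with enough reads to be tested. They were chosen by measured values, with results of these data in view, because IGFBP3 was among the largest rises between 2 of the groups, WNK2 trans Ctr and WT Ctr. For that contrast the values of all 9 genes are given as a description, with no test, and IGFBP3 was tested only in comparisons that use neither group.

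RNA-seq was performed on T/C-28a2 cells, an immortalised human chondrocyte line, in 24 libraries that fall into 6 groups of 4. WT Ctr and WT Sor are unedited, untransfected cells kept for 7 days in isotonic media (300 mOsm) or in media with 100 mM sorbitol (400 mOsm), a chronic hyperosmotic stress, all with 2% serum. WNK2 trans Ctr and WNK2 trans Sor are cells given a plasmid for the kinase WNK2 with Lipofectamine before the same media, and their comparators are untransfected cells, so transfection itself and the plasmid cannot be told apart. WNK2- Ctr and WNK2- Sor are a single clonal line in which CRISPR/Cas9 removed exon 2 of WNK2, so the deletion and the clone cannot be told apart. The study calls the libraries of a group biological replicates. Totals ran from 14153002 to 25664619 counted reads.

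The counts of WNK2 itself went against part of the labels. WNK2 had 1441 to 3409 normalized counts in the libraries labelled WT Ctr and 183 to 296 in those labelled WNK2 trans Ctr, so the isotonic libraries labelled as transfected held fewer WNK2 reads than the isotonic libraries labelled as untransfected. Under sorbitol the order was the opposite, with 283 to 319 normalized counts in WT Sor while WNK2 trans Sor held 2245 to 3793. WNK2- Ctr and WNK2- Sor held 388 to 417 and 311 to 419. A count covers all exons of WNK2, which leaves transcripts with and without exon 2 unseparated. Group names below are therefore the labels of the libraries, and each call of a member that rests on the libraries labelled WT Ctr or WNK2 trans Ctr is also given with the other of these 2 groups as the comparator. The study reports no significant change of WNK2 in wild-type cells with sorbitol or with transfection. In these counts WNK2 was 8.33-fold lower in WT Sor than in WT Ctr, so WT Sor departs from that report, as does WNK2 trans Ctr. No other group was put in place of WT Sor or WNK2 trans Sor, so calls that rest on them have no such alternative. Of the chondrocyte markers, COL2A1 had 5 to 224 reads and HAPLN1 258 to 2765. SOX9 was listed at 0 in every library, as were COL10A1, SPP1, BGLAP, CD68 and ACTA2, and whether these zeros arose in the counting was not tested, so SOX9 says nothing here about the identity of the cells. Summed levels of marker lists are given in CPM beside the comparisons in which they did not overlap between the groups, and their part in the results was not tested. A sum follows the most abundant genes of its list, so single markers can go the other way. The lists held 12 chondrocyte markers (8 with enough reads to be tested), 7 of hypertrophic chondrocytes or osteoblasts (2 tested), 5 of endothelium (4 tested), 5 of leukocytes (1 tested), 5 of epithelium (4 tested) and 4 of smooth muscle (2 tested). Over all libraries the epithelial list summed to 608 to 1240 CPM and the chondrocyte list to 23.7 to 158.5. The epithelial gene KRT8 had 6377 to 15766 reads.

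IGF1 and IGF2 act on cells through the receptor tyrosine kinase IGF1R, which in cartilage supports matrix production and survival. IGF2R carries no kinase and takes IGF2 up for degradation in lysosomes. The binding proteins are secreted, hold IGFs outside the cell and so limit or prolong their access to the receptor, and several of them also act without IGF. Proteases such as PAPPA (pregnancy-associated plasma protein A), PAPPA2 and HTRA1 cut binding proteins and release IGF, and the stanniocalcins STC1 and STC2 inhibit PAPPA.

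IGFBP3 and IGFBP5 had the widest range of group means, topped by WNK2 trans Ctr, a group used in choosing the genes. IGFBP4 was the most abundant binding protein per kb of exon. The windows before the transcription starts of these genes are shown because the results turn on them. They are the 250 bases before the start in RefSeq (GRCh38.p14), given 5′ to 3′ on the strand of the gene, at chr7:45921273-45921522 (minus strand) for IGFBP3, chr2:216695550-216695799 (minus strand) for IGFBP5 and chr17:40443200-40443449 (plus strand) for IGFBP4. Capitals mark the GC box (GGGCGG), the core of the tonicity-responsive element (TGGAAA), the TATA box (TATAAA) and the core of the TEAD element (GGAATG), or their reverse complements.
IGFBP3: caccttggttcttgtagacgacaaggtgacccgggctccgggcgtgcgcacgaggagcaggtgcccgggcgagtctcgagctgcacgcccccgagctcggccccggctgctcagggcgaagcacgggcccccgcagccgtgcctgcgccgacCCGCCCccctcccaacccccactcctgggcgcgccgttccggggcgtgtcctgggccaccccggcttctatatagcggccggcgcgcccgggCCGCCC
IGFBP5: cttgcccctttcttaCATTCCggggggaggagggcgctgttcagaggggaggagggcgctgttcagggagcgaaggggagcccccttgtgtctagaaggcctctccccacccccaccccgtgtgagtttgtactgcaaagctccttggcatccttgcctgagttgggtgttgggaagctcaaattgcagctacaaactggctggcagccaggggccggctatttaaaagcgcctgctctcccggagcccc
IGFBP4: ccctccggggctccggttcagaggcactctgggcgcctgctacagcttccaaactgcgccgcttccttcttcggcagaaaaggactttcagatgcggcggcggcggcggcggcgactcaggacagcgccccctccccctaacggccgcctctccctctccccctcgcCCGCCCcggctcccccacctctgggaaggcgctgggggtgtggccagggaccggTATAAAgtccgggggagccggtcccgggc
The IGFBP3 window held the GC box on the reverse strand at positions −98 to −93 and −6 to −1 before the start, was 76% G or C and held 32 CG dinucleotides, against medians of 58% and 11 over 35116 windows of the same length. The IGFBP5 window was 61.2% G or C with 8 CG dinucleotides and held the TEAD core on the reverse strand at −235 to −230. IGFBP4 had a TATA box at −29 to −24 and a GC box on the reverse strand at −83 to −78. Windows were found for 7 of the 9 members, and among them the tonicity core was present only in IGFBP6. Over all 35116 windows, searched on both strands, the GC box occurred in 42.6%, the tonicity core in 18%, the TEAD core in 11.9% and the TATA box in 10.7%. The AP-1 site TGANTCA, which occurred in 6.57% and overlaps none of the other motifs here, was in none of the member windows. A match describes the letters of the window and nothing about binding.

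Expression of the binding proteins differed up to 17.5-fold between groups, and IGFBP3 and IGFBP5 had the widest range. In both the highest group was WNK2 trans Ctr, the group in which IGFBP3 was chosen for being high. The choice of genes thus favours this ranking, which is a description. Between WNK2- Ctr and WT Ctr, where WNK2 trans Ctr takes no part, IGFBP2 differed most of the binding proteins, 12.1-fold. IGFBP3 (ENSG00000146674, GRCh38 chromosome 7, 45912245 to 45921874), the main IGF carrier in serum, had 626, 835, 625 and 625 normalized counts in the libraries labelled WT Ctr and 842, 744, 732 and 725 in WT Sor. The libraries labelled WNK2 trans Ctr had 3473, 4036, 4544 and 3576 normalized counts of IGFBP3, and those labelled WNK2 trans Sor had 330, 316, 409 and 374. In WNK2- Ctr the IGFBP3 values were 246, 216, 222 and 210, and in WNK2- Sor 251, 251, 231 and 250. The WNK2 trans Ctr libraries thus lay above all 20 others, the WT Ctr and WT Sor ranges overlapped, WNK2 trans Sor lay below both, and the WNK2- libraries were lowest, with overlapping ranges in the presence and absence of sorbitol.

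IGFBP5 (ENSG00000115461, GRCh38 chromosome 2, 216672105 to 216695525), a binding protein that attaches to extracellular matrix, had 2148, 1622, 1731 and 1764 normalized counts in WT Ctr and 4385, 4122, 4708 and 4304 in WT Sor. In the libraries labelled WNK2 trans Ctr it had 8603, 6726, 7628 and 8676, and in WNK2 trans Sor 2632, 1749, 1655 and 1759. WNK2- Ctr libraries had 425, 464, 488 and 431 normalized counts of IGFBP5, and WNK2- Sor libraries 944, 895, 783 and 993. Going down the order of group means, WNK2 trans Ctr, WT Sor and WNK2 trans Sor did not overlap, WNK2 trans Sor and WT Ctr did, and WT Ctr, WNK2- Sor and WNK2- Ctr each lay apart from the next.

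IGFBP2 (ENSG00000115457, GRCh38 chromosome 2, 216632828 to 216664436), a binding protein with a preference for IGF2, lies next to IGFBP5 on the opposite strand. It had 264, 144, 143 and 198 normalized counts in WT Ctr, 160, 170, 129 and 165 in WT Sor, and 187, 156, 289 and 217 in WNK2 trans Ctr. WNK2 trans Sor had 129, 61.2, 108 and 93.7 normalized counts of IGFBP2. In the WNK2- Ctr libraries it had 11.4, 26.4, 7.76 and 15.8, and in WNK2- Sor 21.2, 22.5, 6.76 and 16.8. All 8 WNK2- libraries lay below all 16 others, on 7 to 31 reads each. The ranges of WNK2 trans Ctr, WT Ctr and WT Sor overlapped, and WNK2 trans Sor lay just below WT Sor.

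IGFBP4 (ENSG00000141753, GRCh38 chromosome 17, 40443461 to 40457731), which mainly inhibits IGF action until PAPPA cuts it, had 10668 ± 2640.5 normalized counts in WT Ctr (SD, n = 4) and 11924 ± 923 in WT Sor. It had 15578 ± 2410.2 in WNK2 trans Ctr and 7660.1 ± 2340.4 in WNK2 trans Sor, against 5958 ± 581 in WNK2- Ctr and 5002 ± 504 in WNK2- Sor. Only the WNK2 trans Ctr range stood clear of the next group in the order for IGFBP4, and the other neighbouring ranges overlapped. It did not stand clear of all groups, since its lowest library had 14099 and the highest of WT Ctr 14280. IGFBP7 (ENSG00000163453, GRCh38 chromosome 4, 57030773 to 57110385), a matrix protein that binds IGFs weakly, followed a similar order. Its mean was 3192 ± 329 normalized counts in WNK2 trans Ctr, 2709.8 ± 958 in WT Ctr, 2362 ± 114 in WT Sor, 1714 ± 256 in WNK2 trans Sor, 1069 ± 28.7 in WNK2- Ctr and 777 ± 105 in WNK2- Sor (SD, n = 4 each). The IGFBP7 ranges overlapped between neighbours among the first 3 groups, though WNK2 trans Ctr lay above WT Sor, and the last 3 lay apart from each other. IGFBP6 (ENSG00000167779, GRCh38 chromosome 12, 53097436 to 53102345), which binds IGF2 in preference to IGF1, had means between 941 and 1139.7 normalized counts in all 6 groups, with every neighbouring pair overlapping.

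Group means of the receptors varied 2.15-fold for IGF1R and 1.46-fold for IGF2R. This was less than for each binding protein but IGFBP6, which varied 1.21-fold. IGF1R (ENSG00000140443, GRCh38 chromosome 15, 98648539 to 98964530) had 887, 754, 1427 and 1435 normalized counts in WT Ctr and 1439, 1698, 1466 and 1398 in WT Sor. It had 2528, 2256, 1248 and 2051 in WNK2 trans Ctr and 760.5, 1147, 1128 and 1108 in WNK2 trans Sor. In WNK2- Ctr the IGF1R values were 1350.2, 1621, 1774 and 1666, all above the 996, 963, 835 and 966 of WNK2- Sor, while the WT Ctr libraries fell into a lower and a higher pair. IGF2R (ENSG00000197081, GRCh38 chromosome 6, 159969099 to 160113507) ranged from 6315 ± 1500.2 normalized counts in WNK2 trans Sor to 9203 ± 438 in WT Sor (SD, n = 4), and only WT Sor stood clear of the next group. WT Sor still overlapped WNK2 trans Ctr, with a lowest library of 8675 against a highest of 8682. The ligand IGF2 (ENSG00000167244, GRCh38 chromosome 11, 2129112 to 2149603) was low, with 37.3 to 46.0 normalized counts in the libraries labelled WNK2 trans Ctr and 46.2 to 301 in the remaining 20. Of its exonic bases 75.0% are shared with other annotated genes, so its counts are uncertain. Chief among these is a second identifier of IGF2 itself on the same strand, which shares 73.7% and was also counted. The counts used may therefore miss reads of IGF2, and those of the second identifier are not given here. IGF1 had at most 1 read in any library.

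**Figure D1:**
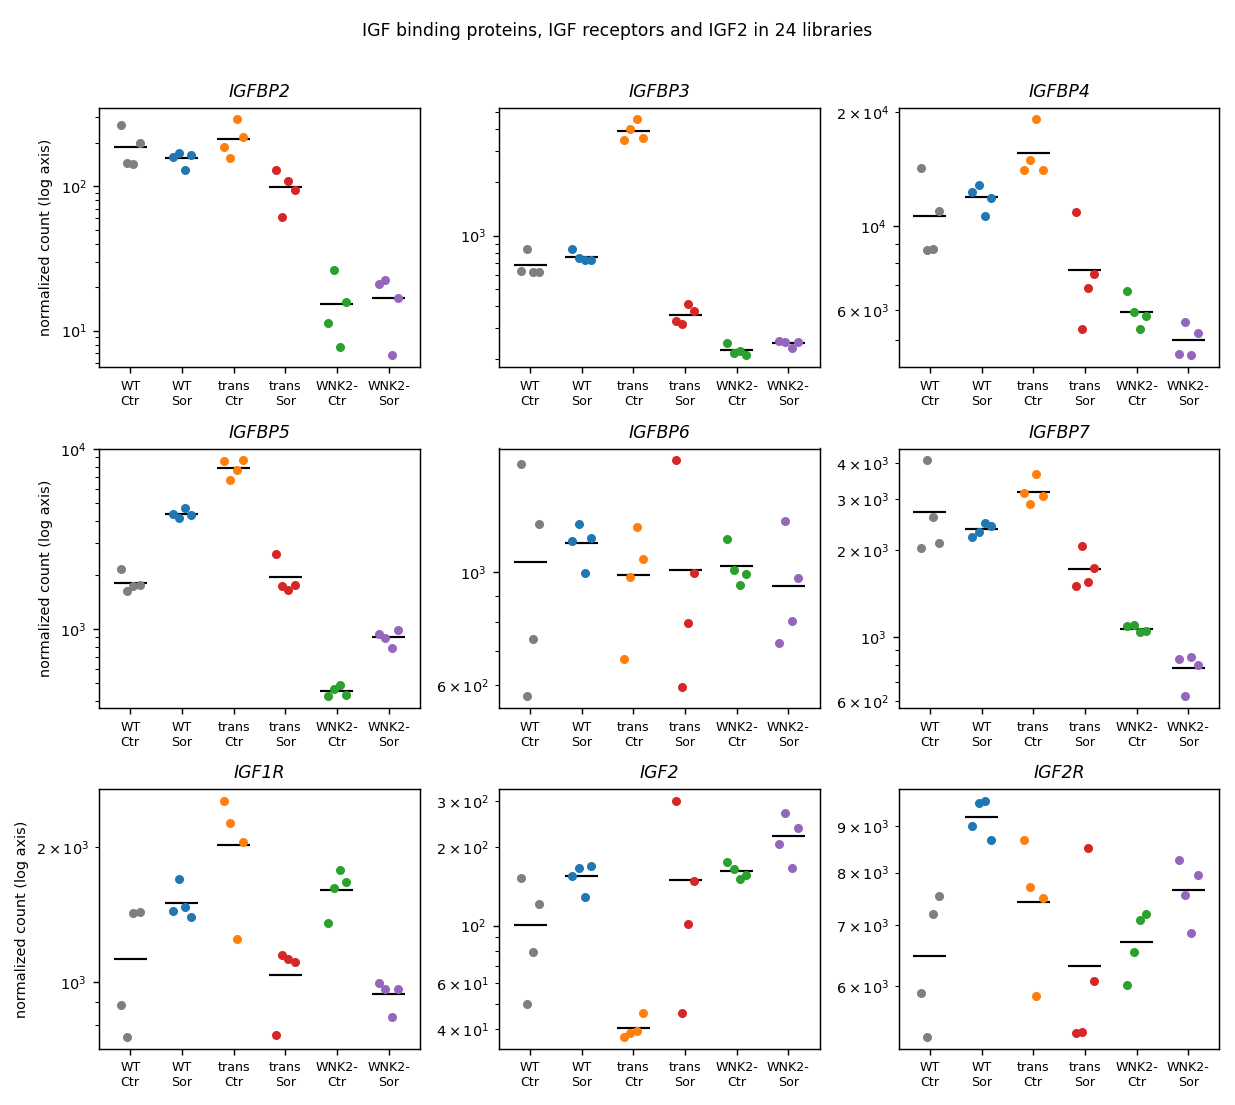
Normalized counts (log axis) of the 9 genes in the 6 groups, with a point for each library and a line at the mean of 4. IGFBP3 lies at 3473 to 4544 in WNK2 trans Ctr and at 210 to 251 in the WNK2- groups, while IGFBP6 overlaps between all groups.

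Per kb of exon, IGFBP4 made up most of the binding protein message in every group. Levels here are CPM per kb of exon, summed over the 6 IGFBP genes, with all annotated exons of a gene merged. That length was 4571 bases for IGFBP3, whose longest transcript has 2412, and 2200 by both measures for IGFBP4. The shares thus depend on the length used. The share of IGFBP4 in that sum was 64.1% ± 5.72 in WT Ctr (SD, n = 4) and lay between a mean of 60.9% in WNK2 trans Ctr and 65.2% in WNK2- Ctr, although the summed level itself ran from 631 ± 78.6 CPM per kb in WNK2 trans Ctr to 195 ± 19.5 in WNK2- Sor. The rest of the sum was divided differently between groups. IGFBP3 had a share of 7.38% ± 0.445 in WNK2 trans Ctr and means of 1.18% to 2.03% in the others. IGFBP5 had 3.79% ± 0.321 in WT Ctr, 8.16% ± 0.882 in WT Sor, 10.7% ± 1.96 in WNK2 trans Ctr and 1.71% ± 0.233 in WNK2- Ctr. IGFBP6, whose normalized counts overlapped between groups, had a share of 18.4% ± 0.27 in WNK2- Ctr and 19.4% ± 2.94 in WNK2- Sor, against 10.1% ± 3.26 in WT Ctr, and these shares were not tested. The per-length level of IGF2R was 4.68 ± 0.764 times that of IGF1R in WT Ctr, 2.97 ± 0.472 times in WNK2 trans Ctr, 3.29 ± 0.173 times in WNK2- Ctr and 6.37 ± 0.158 times in WNK2- Sor (SD, n = 4 each).

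**Figure D2:**
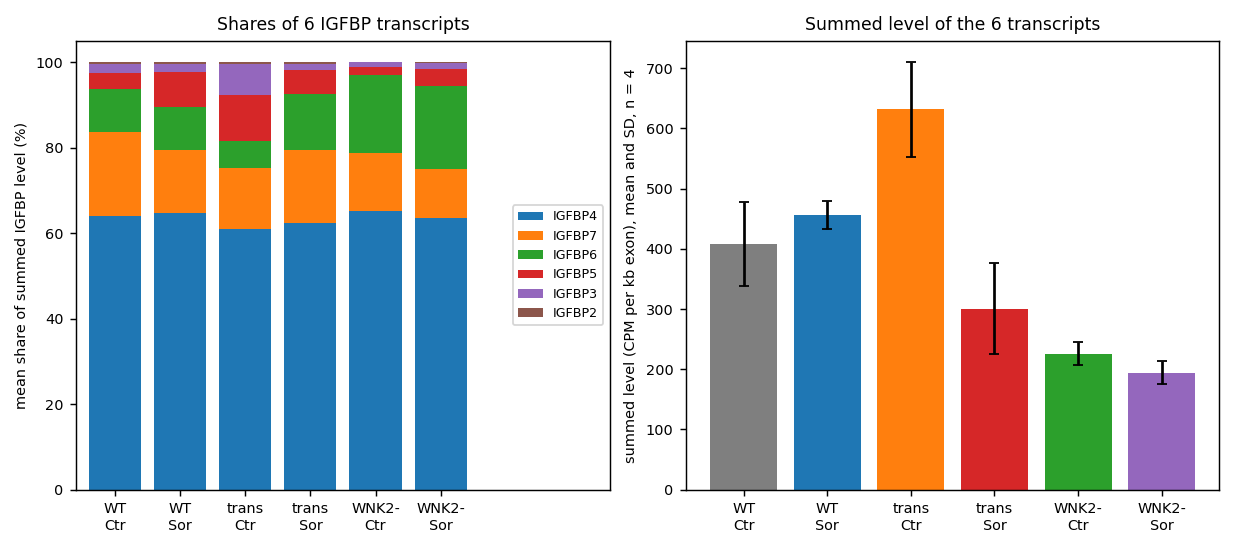
Left, mean share (%) of each of 6 IGFBP transcripts in their summed CPM per kb of exon, by group. Right, that sum as mean and SD of 4 libraries. IGFBP4 holds 60.9% to 65.2% in every group while the sum runs from 195 to 631.

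The first comparison asked what chronic sorbitol did in WT cells. IGFBP5 rose 2.41-fold in WT Sor against WT Ctr, the largest change among the members, and IGF2R rose 1.42-fold, with no overlap of the groups for either, as for 25.7% of all genes. Of the 8 members tested, 2 passed and both were higher, against 24.1% of all 16600 genes called, 11.4% of all genes higher and 12.7% lower. The log2 fold change of IGFBP5 was 1.27 (SE 0.12, adjusted p = 8.56e-08) and that of IGF2R was 0.51 (SE 0.13, adjusted p = 7.92e-03), by the quasi-likelihood test of edgeR, adjusted after Benjamini and Hochberg, which also gives every adjusted p that follows. The other 6 tested members had log2 fold changes from −0.26 for IGFBP2 to 0.63 for IGF2 (SE 0.34, adjusted p = 0.195), and IGF1R had 0.41 (SE 0.19, adjusted p = 0.116). Leaving out WT Ctr replicate 3 or 4 brought IGF1R to 0.56, past the threshold (adjusted p = 0.0478 and 0.0463). IGFBP3, described only, had a log2 fold change of 0.17 (SE 0.11). With the libraries labelled WNK2 trans Ctr as the isotonic comparator, the log2 fold change of IGFBP5 turned to −0.85 (SE 0.12, adjusted p = 2.10e-05), IGF2R had 0.31 (adjusted p = 0.131) and IGF2 had 1.94 (adjusted p = 6.41e-04), so the direction of the IGFBP5 result depended on which isotonic libraries served as control. Endothelial markers summed to 60.004 to 67.2 CPM in WT Sor and 36.2 to 42.5 in WT Ctr. Of the 4 tested, only PECAM1 passed (0.97, adjusted p = 3.00e-05), while VWF had 0.44, CDH5 −0.16 and KDR −0.36 without passing.

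Deletion of WNK2 exon 2 was compared with WT cells in both media. In isotonic media IGFBP2, IGFBP5, IGFBP7 and IGFBP4 were lower in WNK2- Ctr than in WT Ctr, and IGF1R was slightly higher. These 5 of 8 tested members compare with 42.1% of all genes called, 21.5% lower and 20.7% higher, and the median log2 fold change was −0.43 for the tested members and 0.00 for all genes. IGFBP2 was 12.1-fold lower, with a log2 fold change of −3.60 (SE 0.33, adjusted p = 2.56e-09), and IGFBP5 was 4.02-fold lower, with −2.01 (SE 0.13, adjusted p = 5.44e-12). IGFBP7 had −1.34 (SE 0.16, adjusted p = 2.05e-07) and IGFBP4 −0.84 (SE 0.17, adjusted p = 2.32e-04), without overlap of the groups, as for 36.9% of all genes. All 4 also passed, in the same direction, with the libraries labelled WNK2 trans Ctr as the comparator. IGF1R, at 0.51 (SE 0.19, adjusted p = 0.0331), overlapped between the groups. It had −0.33 (adjusted p = 0.150) with that comparator, 0.41 (adjusted p = 0.106) without WT Ctr replicate 1 and 0.35 (adjusted p = 0.144) without WT Ctr replicate 2. The IGF1R call was also lost without WNK2- Ctr replicate 2, 3 or 4 (adjusted p = 0.0628, 0.0917 and 0.0718) and in a fit of the compared groups alone (adjusted p = 0.0575). IGFBP6, IGF2R and IGF2 had log2 fold changes of −0.03, 0.05 and 0.70 (adjusted p = 0.948, 0.788 and 0.106), and IGFBP3, described only, had −1.60. IGF2 passed and was higher with the libraries labelled WNK2 trans Ctr as the comparator (2.01, adjusted p = 7.87e-05), without WT Ctr replicate 1 (0.97, adjusted p = 0.0373) and with a correction for GC content and length (0.74, adjusted p = 0.0193). Marker sums were lower in WNK2- Ctr than in WT Ctr for chondrocytes (23.7 to 26.5 against 93.0 to 107 CPM), hypertrophic chondrocytes or osteoblasts (21.4 to 27.3 against 36.5 to 46.9), endothelium (24.4 to 29.1 against 36.2 to 42.5) and leukocytes (2.19 to 2.86 against 7.25 to 10.9). Single markers did not all follow their sums. Of the 4 tested endothelial markers PECAM1 was lower (log2 fold change −1.37). KDR (3.48, adjusted p = 4.26e-04), VWF (1.32, adjusted p = 4.53e-03) and CDH5 (0.36, adjusted p = 0.0438) were higher. In the hypertrophic or osteoblast list RUNX2 was lower (−0.84) and ALPL higher (2.12, adjusted p = 0.0482). CD14 (−1.94) was the only tested gene of the leukocyte list.

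Under sorbitol, where neither group used by the choice of genes took part, 6 of all 9 members differed between WNK2- Sor and WT Sor, and all 6 were lower, against 46.3% of all genes called and 22.7% lower. The median log2 fold change was −1.25 over the members and 0.02 over all genes. WNK2 itself had 283 to 319 normalized counts in WT Sor and 311 to 419 in WNK2- Sor. The unedited comparator thus held no more WNK2 reads than the cells with the deletion. IGFBP2 was 9.03-fold lower (log2 fold change −3.17, SE 0.32, adjusted p = 9.15e-09) and IGFBP5 4.84-fold lower (−2.28, SE 0.13, adjusted p = 1.98e-13). IGFBP3 was 3.09-fold lower (−1.63, SE 0.11, adjusted p = 7.97e-12), and IGFBP7 was 3.04-fold lower (−1.60, SE 0.16, adjusted p = 7.63e-09). IGFBP4 fell by 1.25 on the log2 scale (adjusted p = 9.88e-07) and IGF1R by 0.67 (SE 0.19, adjusted p = 5.09e-03). No WNK2- Sor library overlapped with WT Sor for any of these 6 genes, where 53.9% of all genes did not overlap. IGF2 (0.51, adjusted p = 0.211), IGF2R (−0.26, adjusted p = 0.112) and IGFBP6 (−0.28, adjusted p = 0.427) did not pass. IGF2R passed in a fit of the 2 compared groups alone (−0.27, adjusted p = 1.10e-03), as did IGF2 (0.50, adjusted p = 5.01e-03). Without the WT Ctr and WNK2 trans Ctr groups IGF2R had −0.29 (adjusted p = 0.0376). With the correction for GC content and length IGF2 had 0.79 (adjusted p = 8.37e-03) and IGF2R −0.39 (adjusted p = 5.20e-04). Marker sums in WNK2- Sor were below those in WT Sor for chondrocytes (24.9 to 29.1 against 87.8 to 93.5 CPM), hypertrophic chondrocytes or osteoblasts (12.8 to 15.5 against 41.2 to 46.3), endothelium (35.8 to 45.7 against 60.004 to 67.2), leukocytes (2.00 to 2.38 against 8.84 to 12.4) and smooth muscle (7.36 to 12.4 against 16.4 to 22.5). Against the endothelial sum, its markers KDR (log2 fold change 4.81, adjusted p = 4.93e-06) and VWF (1.28, adjusted p = 2.93e-03) were higher in WNK2- Sor.

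Because the WNK2- cells are clonal, the genes that flank each member are given beside these results. The 20 tested genes nearest to IGFBP2 and IGFBP5 on chromosome 2, between 215942805 and 218405941, differed by a median of −0.01 on the log2 scale between WNK2- Sor and WT Sor, with 7 higher and 6 lower, and by −0.31 in isotonic media. Around IGFBP3 the median of 20 flanking genes was 0.23 under sorbitol (10 higher, 6 lower) and around IGFBP7 it was 0.19 (4 higher, 2 lower). Around IGFBP4 it was −0.52 (4 higher, 9 lower), nearer to the −1.25 of IGFBP4 itself. Under sorbitol the flanking range included the member for IGFBP3 (−2.09 to 2.94), IGFBP7 (−2.56 to 2.08) and IGFBP4 (−1.53 to 4.81). The range around IGFBP2 and IGFBP5 (−1.91 to 3.33) held neither. In isotonic media the ranges around IGFBP3 (−0.51 to 1.39) and IGFBP7 (−0.95 to 1.99) did not include the member. Over all genes 23.7% were higher and 22.7% lower under sorbitol, and 20.7% and 21.5% in isotonic media. Around IGF1R most called genes were higher. Of the 20 tested genes flanking it on chromosome 15, between 92900189 and 100558954, 13 were higher and 1 lower in WNK2- Sor, with a median of 0.87 and a range of −1.63 to 3.39 that includes the −0.67 of IGF1R, and in isotonic media 10 were higher and 0 lower (median 0.67) beside the 0.51 of IGF1R. The part of copy number in these values was not tested.

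Sorbitol was also compared with isotonic media within WNK2- cells. IGFBP5 rose 2.00-fold (log2 fold change 1.00, SE 0.13, adjusted p = 2.97e-06) and IGF1R fell 1.70-fold (−0.77, SE 0.19, adjusted p = 5.99e-03), with no overlap of the groups for either, as for 28.4% of all genes. IGFBP7 was 1.37-fold lower at the edge of the threshold (−0.46, SE 0.16, adjusted p = 0.0496) and was no longer past it when any of the 8 libraries was left out, with adjusted p between 0.0577 and 0.157. These 3 of 9 members, 1 higher and 2 lower, compare with 14.9% of all genes called, 8.25% higher and 6.64% lower. IGFBP3 had a log2 fold change of 0.14 (SE 0.11, adjusted p = 0.479), and its 8 WNK2- libraries held 210 to 251 normalized counts. In WNK2- Sor the marker sums were higher than in WNK2- Ctr for endothelium (35.8 to 45.7 against 24.4 to 29.1 CPM) and lower for smooth muscle (7.36 to 12.4 against 27.2 to 33.2) and for hypertrophic chondrocytes or osteoblasts (12.8 to 15.5 against 21.4 to 27.3). Whether the sorbitol change differed between WNK2- and WT cells was tested as an interaction, for which 1 of 8 members passed against 8.65% of all genes, 4.66% with a negative interaction. IGF1R had an interaction of −1.18 on the log2 scale (SE 0.27, adjusted p = 6.35e-03), from changes of −0.77 in WNK2- and 0.41 in WT cells. With the libraries labelled WNK2 trans Ctr in place of WT Ctr it was −0.34 (adjusted p = 0.662). The sorbitol rise of IGFBP5 had an interaction of −0.27 (SE 0.18, adjusted p = 0.372) with WT Ctr and of 1.85 (adjusted p = 1.95e-07) with WNK2 trans Ctr in its place.

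**Figure D3:**
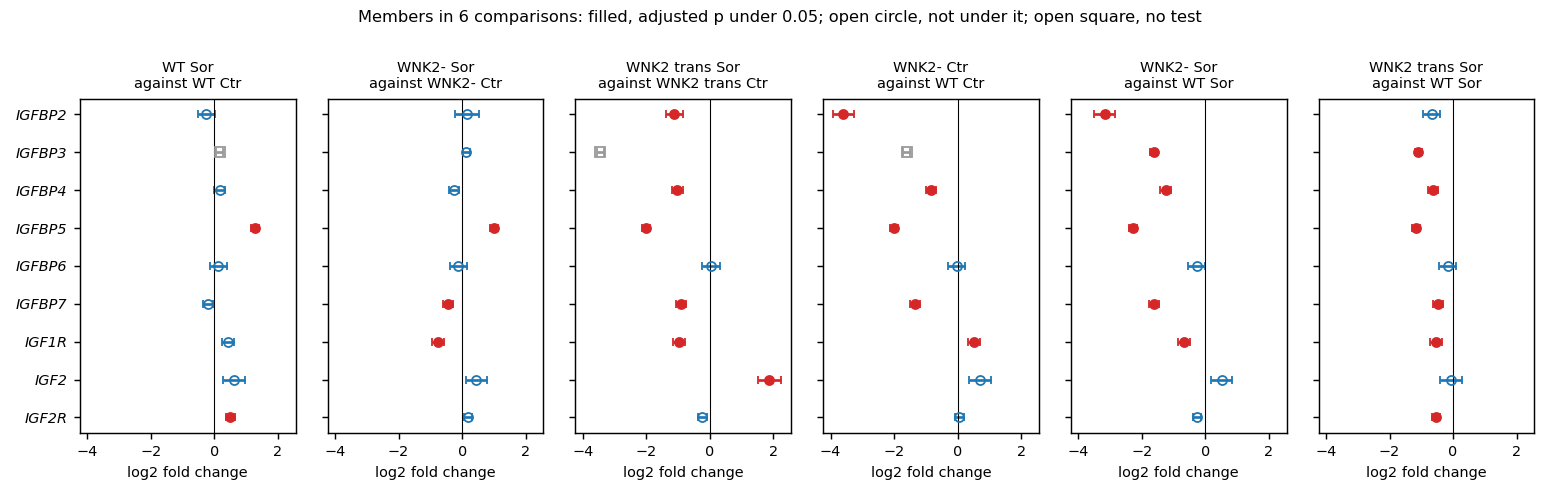
Log2 fold change and SE of the 9 genes in 6 comparisons from edgeR. Filled red circles passed an adjusted p of 0.05, open blue circles did not, and open grey squares mark IGFBP3 where it was not tested. IGFBP5 is at 1.27 and 1.00 for sorbitol in WT and WNK2- cells and at −2.02 within the transfection labels.

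The libraries labelled as transfected were compared with untransfected libraries in each medium. In isotonic media, the contrast by which the genes were chosen, IGFBP3 was 5.76-fold and IGFBP5 4.35-fold higher in WNK2 trans Ctr than in WT Ctr, IGF1R was 1.79-fold and IGFBP4 1.46-fold higher, and IGF2 was 2.48-fold lower. These are descriptions, and WNK2 was 10.0-fold lower in the same libraries. Under sorbitol 6 of 9 members were lower in WNK2 trans Sor than in WT Sor and 0 were higher, against 31.7% of all genes called with 15.5% lower and 16.1% higher. IGFBP5 fell 2.25-fold (log2 fold change −1.17, SE 0.12, adjusted p = 9.03e-08) and IGFBP3 2.13-fold (−1.09, SE 0.11, adjusted p = 3.94e-08). Smaller falls were those of IGFBP4 (−0.64, adjusted p = 4.65e-03), IGF2R (−0.54, adjusted p = 3.26e-03), IGF1R (−0.53, adjusted p = 0.0345) and IGFBP7 (−0.46, adjusted p = 0.0252). The IGF1R call was lost in 5 of 15 alternatives, namely without WT Sor replicate 1, 2 or 3 and without WNK2 trans Sor replicate 1 or 4 (adjusted p = 0.0504 to 0.0960), and that of IGFBP7 was lost without WNK2 trans Sor replicate 3 (adjusted p = 0.0637). IGFBP2 had −0.68 (SE 0.27, adjusted p = 0.0602) and passed in 4 alternatives, among them without WNK2 trans Sor replicate 1 (adjusted p = 0.0212). Marker sums in WNK2 trans Sor were above those in WT Sor for chondrocytes (112 to 158.5 against 87.8 to 93.5 CPM) and endothelium (99.3 to 106 against 60.004 to 67.2), and below them for leukocytes (3.50 to 6.03 against 8.84 to 12.4) and smooth muscle (7.14 to 16.1 against 16.4 to 22.5). The chondrocyte sum mostly follows HAPLN1, with 258 to 2765 reads per library against at most 224 for COL2A1 and 179 for ACAN. Single markers are not given for this comparison. The study reports lower COL2A1, ACAN, COMP and MATN3 in transfected cells under sorbitol.

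Sorbitol was last compared with isotonic media within the transfection labels, where 4 binding protein genes and IGF1R were lower. In WNK2 trans Sor against WNK2 trans Ctr, IGFBP5 was 4.06-fold lower (log2 fold change −2.02, SE 0.13, adjusted p = 1.96e-12), IGFBP2 2.17-fold, IGFBP4 2.03-fold, IGF1R 1.95-fold and IGFBP7 1.86-fold lower (adjusted p = 1.45e-03, 1.85e-05, 1.95e-04 and 4.30e-05), and IGF2 was 3.67-fold higher (1.88, SE 0.37, adjusted p = 2.08e-04). These 6 of 8 members compare with 48.0% of all genes called, 24.3% higher and 23.7% lower. IGFBP6 had a log2 fold change of 0.03 (adjusted p = 0.930), and IGFBP3, described only, was 10.9-fold lower. IGF2R did not pass. It passed and was lower without WNK2 trans Sor replicate 3 (−0.42, adjusted p = 9.27e-03) and with the correction for GC content and length (−0.41, adjusted p = 3.66e-04). With the libraries labelled WT Ctr as the comparator, IGFBP2, IGFBP4 and IGFBP7 still passed and were lower, while IGFBP5 had a log2 fold change of 0.10 (adjusted p = 0.542), IGF1R −0.12 (adjusted p = 0.647) and IGF2 0.57 (adjusted p = 0.199). IGF2 in WNK2 trans Sor rested on values of 301, 46.2, 101 and 149 normalized counts. Marker sums were higher in WNK2 trans Sor than in WNK2 trans Ctr for chondrocytes (112 to 158.5 against 70.6 to 87.9 CPM), endothelium (99.3 to 106 against 25.3 to 41.7) and hypertrophic chondrocytes or osteoblasts (45.6 to 63.3 against 29.9 to 38.9), and lower for leukocytes (3.50 to 6.03 against 13.3 to 22.0) and smooth muscle (7.14 to 16.1 against 18.5 to 33.4). Here too the chondrocyte sum mostly follows HAPLN1, and single markers are not given.

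Other genes of the IGF pathway were taken from a list of 37, of which 32 could be tested. In WT Sor against WT Ctr 8 of the 32 rose and 1 fell, beside 11.4% and 12.7% of all genes. In WNK2- Ctr against WT Ctr 12 rose and 7 fell, beside 20.7% and 21.5% of all genes, and in WNK2- Sor against WT Sor 7 rose and 13 fell, beside 23.7% and 22.7%. In WNK2- Sor against WNK2- Ctr 3 rose and 4 fell, beside 8.25% and 6.64%. The share of the list called was 28.1%, 59.4%, 62.5% and 21.9% in these 4 comparisons, beside 24.1%, 42.1%, 46.3% and 14.9% of all genes, so the first was near that of all genes. For the genotype by sorbitol interaction 10 of the 32 passed, 9 of them negative, beside 8.65% and 4.66% of all genes. Among them were PAPPA (−1.30, adjusted p = 1.69e-03), H19 (−1.25, adjusted p = 0.0252), HTRA1 (−1.06, adjusted p = 1.05e-05) and STC1 (0.71, adjusted p = 6.41e-03). These values rest on WT Ctr, and none is given with another comparator. The group means of the protease gene PAPPA were highest in WT Sor, then in WNK2 trans Ctr, then in WNK2 trans Sor, WT Ctr, WNK2- Sor and WNK2- Ctr, an order which is that of its substrate IGFBP5 but for the exchange of the highest pair. PAPPA had 434 ± 76.7 normalized counts in WT Ctr (SD, n = 4) and 1988 ± 185 in WT Sor, and rose by 2.19 on the log2 scale (SE 0.18, adjusted p = 2.86e-09). The libraries labelled WNK2 trans Ctr, at 1294 ± 398, also lay below WT Sor without overlap. In WNK2- Sor PAPPA had 319 ± 15.3 normalized counts, 2.64 lower than WT Sor on the log2 scale (SE 0.18, adjusted p = 8.83e-12), and it rose with sorbitol within WNK2- cells by 0.90 (SE 0.18, adjusted p = 1.10e-03). STC2, which encodes a PAPPA inhibitor, had 5185 ± 664 normalized counts in WT Ctr and 5508 ± 909 in WNK2 trans Ctr. It was higher in WNK2- Ctr, at 18529.8 ± 1406 (log2 fold change 1.84 against WT Ctr, SE 0.11, adjusted p = 2.22e-12), and in WT Sor, at 9511 ± 860.4 (0.88, SE 0.11, adjusted p = 3.55e-06). The ratio of STC2 to PAPPA, per kb of exon, was 23.3 ± 6.30 in WT Ctr, 9.07 ± 0.896 in WT Sor, 8.90 ± 3.86 in WNK2 trans Ctr and 32.4 ± 7.37 in WNK2 trans Sor, against 207 ± 31.3 in WNK2- Ctr and 119 ± 10.6 in WNK2- Sor (SD, n = 4 each).

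HTRA1, a secreted serine protease, was lower in WNK2- cells than in any other group, at 523 ± 36.0 normalized counts in isotonic media and 278 ± 9.12 under sorbitol, against 2930.3 ± 119 in WT Sor. Under sorbitol its difference was −3.40 on the log2 scale (SE 0.10, adjusted p = 1.39e-18). PAPPA2 rose in WNK2- Sor against WT Sor by 2.82 (SE 0.48, adjusted p = 3.19e-05) from a mean of 4.91 normalized counts to 35.0, and STC1 rose by 1.02 (SE 0.11, adjusted p = 5.31e-08). Of the genes downstream of the receptor, the transcription factor gene FOXO4 fell by 2.29 in the same comparison (SE 0.17, adjusted p = 2.56e-11). H19, the imprinted RNA beside IGF2, rose in WT Sor against WT Ctr by 1.66 (SE 0.26, adjusted p = 4.67e-05) from 42.7 ± 16 to 134 ± 13.9 normalized counts, and FOXO3 fell by 0.31 (SE 0.11, adjusted p = 0.0371). In WNK2- Sor against WNK2- Ctr, INSR, the insulin receptor, fell by 0.43 (SE 0.08, adjusted p = 4.78e-04), the binding protein-like gene IGFBPL1 fell by 1.12 (SE 0.15, adjusted p = 9.47e-06) and the kinase subunit gene PIK3R1 rose by 0.70 (SE 0.17, adjusted p = 5.63e-03). In WNK2 trans Sor against WT Sor 6 of the 32 pathway genes rose and 10 fell, beside 16.1% and 15.5% of all genes. PAPPA2 rose most (1.35, SE 0.52, adjusted p = 0.0493), from a mean of 4.91 normalized counts in WT Sor to 12.6. STC1 came next (1.32, SE 0.11, adjusted p = 3.02e-09), and the largest fall was that of PAPPA (−1.28, SE 0.17, adjusted p = 2.87e-06). Within the transfection labels 7 rose and 13 fell, beside 24.3% and 23.7% of all genes.

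**Figure D4:**
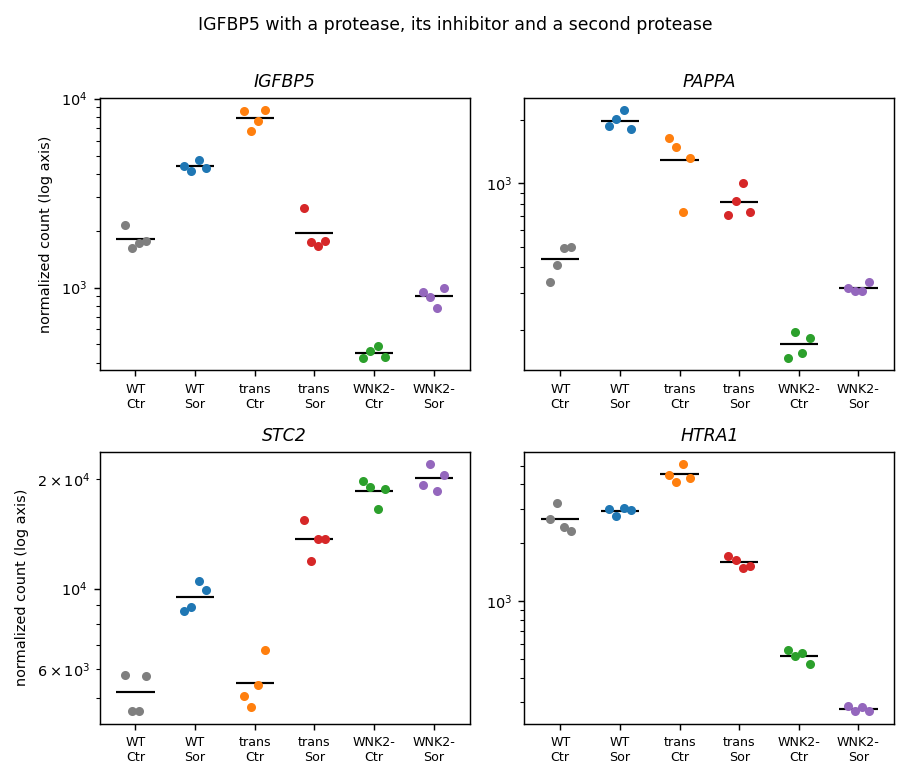
Normalized counts (log axis) of IGFBP5, PAPPA, STC2 and HTRA1 in the 6 groups, with a point for each library and a line at the mean of 4. PAPPA means run from 171 in WNK2- Ctr to 1988 in WT Sor, and STC2 means from 5185 in WT Ctr to 20097 in WNK2- Sor.

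Some members also varied between libraries of the same group along with a measure of composition. For each library the deviation of 15980 genes from their mean over the 24 libraries was correlated with GC content, across genes that are not independent. This correlation was 0.32, −0.24, −0.23 and 0.13 in the WT Ctr libraries and 0.21, −0.47, −0.32 and −0.24 in WNK2 trans Sor, and within 0.13 to 0.24 in WT Sor. The members with the highest GC content in their transcripts were IGFBP6 (64.1%), IGFBP4 (62.5%) and IGF2 (60.4%), against a median of 48.5% over tested genes. IGFBP6 had 1635, 572, 739.9 and 1243 normalized counts in the WT Ctr libraries in the same order, and 1659, 596, 795 and 998 in WNK2 trans Sor, so its highest library in both groups was the one with the highest correlation. IGF2 did the same, at 152, 49.7, 79.0 and 121 in WT Ctr. IGFBP7 went the opposite way in WT Ctr, at 2029, 4095, 2603 and 2112. Of the IGFBP7 exonic bases 18.9% are shared with genes on the other strand, POLR2B and IGFBP7-AS1, and how the counting used strand is not given in the sources used here. The part of these library differences in the results was not tested beyond a correction for GC content and length, chosen after the data were seen. With that correction IGFBP6 had 0.49 (adjusted p = 1.49e-03) in WNK2 trans Sor against WNK2 trans Ctr in place of 0.03 (adjusted p = 0.930). IGF2R then passed as well, with −0.41 (adjusted p = 3.66e-04) in the same comparison. It also passed with −0.39 (adjusted p = 5.20e-04) in WNK2- Sor against WT Sor and −0.21 (adjusted p = 0.0490) in WNK2- Ctr against WT Ctr.

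**Figure D5:**
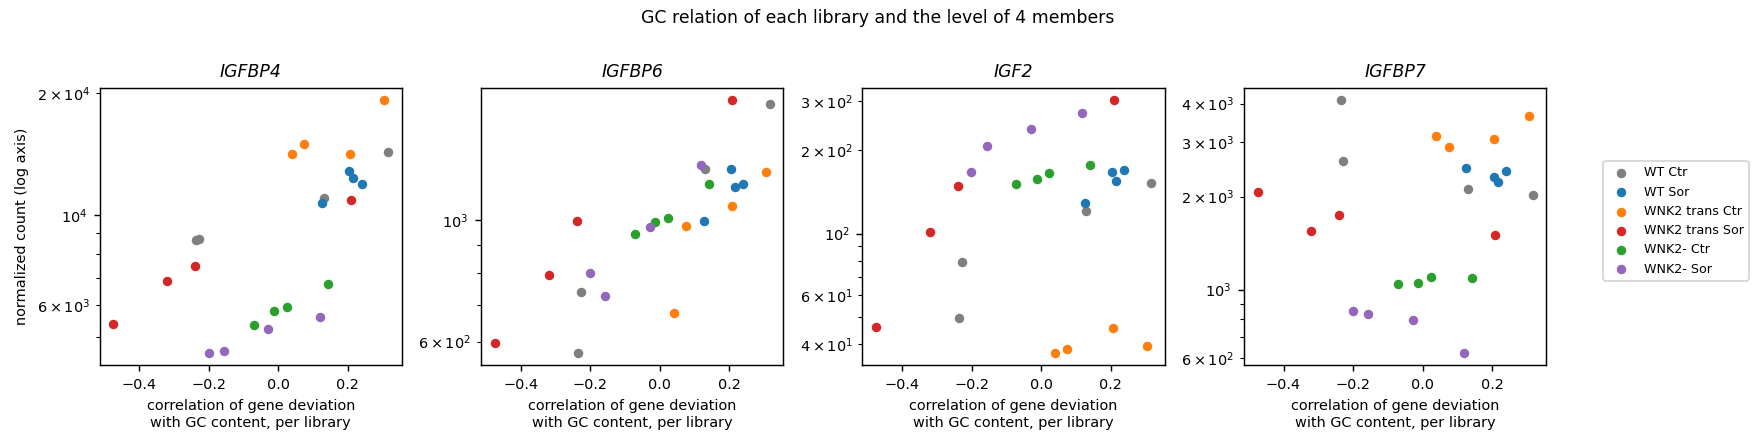
Normalized counts (log axis) of IGFBP4, IGFBP6, IGF2 and IGFBP7 in each library, against the correlation of gene deviations with GC content in that library. The libraries labelled WT Ctr and WNK2 trans Sor spread widest along the horizontal axis, from −0.24 to 0.32 and from −0.47 to 0.21.

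The genes whose log2 CPM followed each member most closely over the 24 libraries were sought among about 9646 others whose mean log2 CPM was 3 or more. For IGFBP3 they were STAT3 (Pearson r = 0.95), THBD (0.95) and SLC2A3 (0.94). For IGFBP5 they were PLAT (0.99), SMOC1 (0.98) and STAT3 (0.97), so STAT3 was shared. For IGFBP4 they were PLD3 (0.99), BCAM (0.98) and FNDC10 (0.98), and for IGFBP7 ITM2B, MBTPS1 and GJC1 (each 0.98). The highest values were 0.97 for IGFBP2 with TMEM101, 0.92 for IGFBP6 with MVD, 0.93 for IGF2 with TRIM8, 0.91 for IGF1R with C2orf27A and 0.91 for IGF2R with BRPF3. These are descriptions over libraries that share groups of 4 and their composition, with no test.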

How the data were processed

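Reads of poly(A)-enriched RNA were counted by the authors with HTSeq on Ensembl gene identifiers, and the files deposited hold these read counts as whole numbers, not normalized. The submitters' processing notes name FastQC 0.11.9, HISAT2 2.2.1, HTSeq 2.0.2 and DESeq2 1.38.3 and the build GRCh38. Totals per library ran from 14153002 to 25664619, and depth limits chiefly IGF2 and IGFBP2, the members with the fewest reads. For IGF2 the bases shared with its second identifier may also lower the count. Of 62703 identifiers 62625 had a symbol. Positions and lengths are from GENCODE 29, which held 58279 of them.

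Counts were analysed in R 4.3.3 with edgeR 4.0.16 (filterByExpr with minimum count 10 and minimum total 15, TMM factors, quasi-likelihood F test) in a single fit of 24 libraries and 6 group means, with Benjamini-Hochberg adjustment over 16600 genes and a threshold of 0.05. For normalized counts each count was scaled to the mean effective library size. The SE was obtained from the log2 fold change and its F statistic. The fit was checked on simulated counts. Alternatives were DESeq2 1.42.0, RLE factors, no filter on low counts, the replicate number as a block, the compared groups alone, other comparators, each library left out, a fit without both isotonic WT groups, and a correction for GC content and length, chosen after seeing the data. Replicates were compared in 36 pairs, and no pair agreed within sampling noise (chi-square per degree of freedom 2.30 to 67.9).

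The members, the pathway and marker lists and the tests were chosen with earlier results of these data known. Named are the 9 members, WNK2, and from the pathway list up to 3 rises and 3 falls per tested comparison among genes past the threshold. For likeness the 3 genes with the highest Pearson r were taken. POLR2B, IGFBP7-AS1 and IGF1 were named after their values were seen. Replicates have no stated pairing across groups.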

Additional observations from a re-analysis of the deposited data

Results flagged for a closer look

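Among 54 sets of 4 libraries (9 members in 6 groups), 6 had a library set apart by Dixon's test, which chance alone gives in about 1 of 20 sets. IGFBP3 had 834.9 normalized counts in WT Ctr replicate 2, above the others of its group, 841.7 in WT Sor replicate 1, and 230.9 in WNK2- Sor replicate 3, below its group. IGFBP4 had 19145 normalized counts in WNK2 trans Ctr replicate 3. WNK2 trans Sor replicate 1 was set apart for 2 members, with 2632 normalized counts of IGFBP5, the highest of its group, and 760.5 of IGF1R, the lowest.

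The change of IGF1R with sorbitol differed between WNK2- and WT cells, with an interaction of −1.18 on the log2 scale (edgeR adjusted p = 6.35e-03). It was −0.34 (adjusted p = 0.662) with the libraries labelled WNK2 trans Ctr as the isotonic control.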

How the results depend on the processing

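Each value got a single label. A tested member was the same if its direction and side of the threshold held, and a sign change was labelled before the threshold was looked at. Counts of genes or members were the same within a set ratio, and untested values within the SD between libraries. Over all alternatives other than leaving out a library, 545 values were the same, 7 lost and 15 gained a call with the sign kept, 14 moved and 18 changed sign. Over fits without a library these numbers were 743, 19, 6, 3 and 13. The causes of the changes were not tested. With WNK2 trans Ctr in place of WT Ctr, the log2 fold changes for sorbitol in WT cells were −0.39 for IGFBP4, −0.85 for IGFBP5 and −0.43 for IGF1R with 2499 genes called, those for WNK2- Ctr were 0.057 for IGFBP6, −0.33 for IGF1R and −0.15 for IGF2R, and the interactions were 0.13 for IGFBP4 and 1.85 for IGFBP5 with 562 genes called. With WT Ctr in place of WNK2 trans Ctr, 3 members and 6509 of 16600 genes passed under sorbitol, with IGFBP5 at 0.10 and IGFBP6 at −0.050. The GC and length correction, chosen after the data were seen, gave −0.079 for IGFBP6 in WT Sor against WT Ctr, −0.21 for IGF2R in WNK2- Ctr, 0.27 for IGFBP6 and 0.25 for IGF2 in WNK2 trans Sor against WT Sor, and interactions of 0.019 for IGFBP6 and 0.049 for IGF2. It called 4040 genes for sorbitol in WNK2- cells, 2313 for the interaction and 3135 for WNK2 trans Ctr against WT Ctr. The compared groups alone gave 5 members and 4824 genes for sorbitol in WNK2- cells and 747 genes for WNK2 trans Ctr against WT Ctr.

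Without single libraries, the log2 fold change for sorbitol in WT cells ran from −0.073 to 0.43 for IGFBP6 and from −0.31 to 0.074 for IGFBP7. In WNK2- Ctr against WT Ctr it ran from −0.23 to 0.27 for IGFBP6 and −0.039 to 0.13 for IGF2R, and for IGFBP2 with sorbitol in WNK2- cells from −0.067 to 0.54. In WNK2 trans Sor against WT Sor it ran from −0.53 to 0.011 for IGFBP6 and −0.66 to 0.24 for IGF2, and against WNK2 trans Ctr from −0.32 to 0.22 for IGFBP6. The interaction of IGF2 ran from −0.47 to 0.027, and the interaction had 1 to 2 members and 849 to 1908 genes called, with IGFBP7 (−0.54, adjusted p = 0.0414) added to IGF1R without WT Ctr replicate 2.

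Replicate numbers are shared by the groups, and 10 of 60 same-numbered pairs had a correlation of deviations above 0.1 (range −0.29 to 0.46), so they were not taken to pair the libraries. WT Ctr and WNK2 trans Sor came nearest to pairing, with 0.46, 0.26, 0.12 and 0.056 for replicates 1 to 4, and their comparison was not fitted with the block. With the replicate number as a block, 2 members passed for sorbitol in WT cells and 2 in WNK2- cells, 5 for WNK2- Ctr, 6 for WNK2- Sor, 6 for both comparisons of WNK2 trans Sor and 1 for the interaction, with 1323 to 7890 genes called in these comparisons. The block ended the call of IGFBP7 for sorbitol in WNK2- cells (adjusted p = 0.0596) and no other call of a member, and IGFBP6 changed sign to 0.017 in WNK2- Ctr against WT Ctr and to −0.036 in WNK2 trans Sor against WNK2 trans Ctr, never past the threshold.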
